A study of Homo sapiens with 48 samples.

Results

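The comparison described here set 4 libraries of HEK293T cells taken 3 h after T-REX against 4 libraries of the same age from cells given the probe alone, 8 of the 48 RNA-seq libraries of the study, chosen by their labels and by nothing measured in them. HEK293T is a human embryonic kidney cell line, and all cells had been transfected with a plasmid for NCBP1 fused to the Halo protein, which binds chloroalkane ligands covalently. T-REX delivers a reactive lipid aldehyde, 4-hydroxynonenal (HNE), to the protein fused to Halo: the cells take up Ht-PreHNE(alkyne), a caged precursor that docks on Halo, unbound probe is rinsed out, and light releases the HNE. The study sequenced 4 arms, each with 4 libraries, at 3, 6 and 12 h.

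In the T-REX arm ("reaction" in the labels) the cells received both the probe and light. In the probe alone arm ("control Pre") they received the probe and were kept from light. The 2 arms therefore differed in illumination as well as in released HNE, and the effects of these 2 cannot be told apart from this comparison alone. The values of the light alone arm ("control UV") and of the DMSO arm ("control DMSO", vehicle without light) at 3 h are set beside the main result where they bear on it. The study's methods list the light alone arm among samples given the probe and its labels do not say whether probe was present, so its make-up is taken here only as far as its name goes. All arms carried the transfected NCBP1, in 1 cell line, and the study describes its replicates as biological and independent. The labels do not link libraries to cultures, so every p-value below measures the spread between libraries.

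NCBP1 is the larger partner in the cap-binding complex of the nucleus, which holds the cap of new transcripts and links it to splicing, export and the first round of translation. HNE is a product of lipid peroxidation that attaches to cysteine side chains. Electrophiles of this kind are best known for switching on antioxidant genes through the transcription factor NRF2, chaperone genes through the heat shock factor HSF1, and, when amino acids or protein folding are disturbed, the integrated stress response through ATF4.

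The 8 libraries held 23952455 to 28997821 gene counts in the T-REX arm and 27284525 to 35169002 in the probe alone arm, over 14685 genes. All 8 listed markers of the HEK293 line were measured, with a summed level of 1082 to 1275 CPM (read counts over the TMM-normalised library size, on the usual CPM scale) in T-REX and 1212 to 1293 in probe alone. None of the listed blood, endothelial or hepatocyte markers was in the table, and of 5 fibroblast markers only COL1A1 was, at 3.31 to 4.24 CPM in T-REX and 2.51 to 3.34 in probe alone. The T-REX libraries were more spread than the others. The median absolute deviation of a library from its arm's mean was 0.0564 to 0.114 (log2) over the genes of the T-REX libraries and 0.045 to 0.0727 in probe alone, and replicates 3 and 4 of T-REX lay apart from replicates 1 and 2 on the first principal component of the 3 h libraries (19.7 and 15.8 against -18.5 and -7.66).

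The targeted gene did not pass the test. NCBP1 took 5.85 to 8.99% of all counts in the T-REX libraries and 5.91 to 6.73% in probe alone, and the counts do not separate reads of the transfected copy from those of the cell's own gene. Its level was 91280, 75022, 78770 and 55428 CPM in T-REX replicates 1 to 4 and 61784, 65338, 67888 and 58197 CPM in probe alone. The groups overlapped, and the log2 fold change was 0.25 (SE 0.124, edgeR's quasi-likelihood test, Benjamini-Hochberg adjusted p = 0.308). Its partner NCBP2, the small subunit that contacts the cap, was at 33.5 to 37.3 CPM against 33.3 to 36.1 CPM (log2 fold change -0.01). Among 21 measured genes for the cap-binding complex and its export, decay and import partners edgeR called none (6 had an unadjusted p under 0.05, and DESeq2 called 1 higher and 1 lower), with values from -0.21 for KPNA2, an importin alpha, to 0.25 for CTIF, a factor of cap-binding-complex-dependent translation, and a median of -0.01 beside 0.02 over all genes.

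At 3 h, 154 of 14685 genes passed an adjusted p of 0.05 between T-REX and probe alone, which is 1.05% of the genes tested. Of these, 35 were higher in T-REX (0.238%) and 119 were lower (0.810%). The CPM of the 4 T-REX libraries did not overlap those of the 4 probe alone libraries in 147 of the 154, 31 of the higher and 116 of the lower. Over all genes 3.38% were higher and 5.34% lower without overlap, and 2645 reached an unadjusted p of 0.05. Over all genes 55.7% had a log2 fold change above 0 and 44.3% at or below it, the shares to hold beside the counts of list members that follow. Changes were small: the median log2 fold change was 0.48 among genes called higher (0.25 to 0.92) and -0.27 among those called lower (-0.96 to -0.17), and 21 of the 154 changed by at least 0.5. In bulk RNA, fewer cells with a transcript and less of it per cell cannot be told apart.

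The number of calls, and most of the calls, depended on single libraries and on the estimate of the spread. Without probe alone replicate 1 it was 18, without probe alone replicate 2 it was 19, and without T-REX replicate 4 it was 27, while without T-REX replicate 3 it was 535, of which 284 were higher. Of the 154 genes, 18, 19, 27 and 154 were still called under these 4 omissions, 42 without probe alone replicate 3, 51 without DMSO replicate 1 and 66 without DMSO replicate 2. With limma's voom and sample weights 501 of 1051 calls were higher, and with the authors' 2 RUV factors as covariates 1255 of 2551, so that under these the directions were near even. In the fit of only the 8 libraries 3 genes passed: RARB, MAP2K6 and POU3F2, which were called under each of 26 alternatives. A further 13 genes were called whichever of the 16 libraries at 3 h was left out, namely TXNIP, HOXA13, KCTD12, CTH, XBP1, HERPUD1, DACH1, TGFBR3, NFYA, IDH1, NR3C2, SLITRK5 and LGR4.

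**Figure D1:**
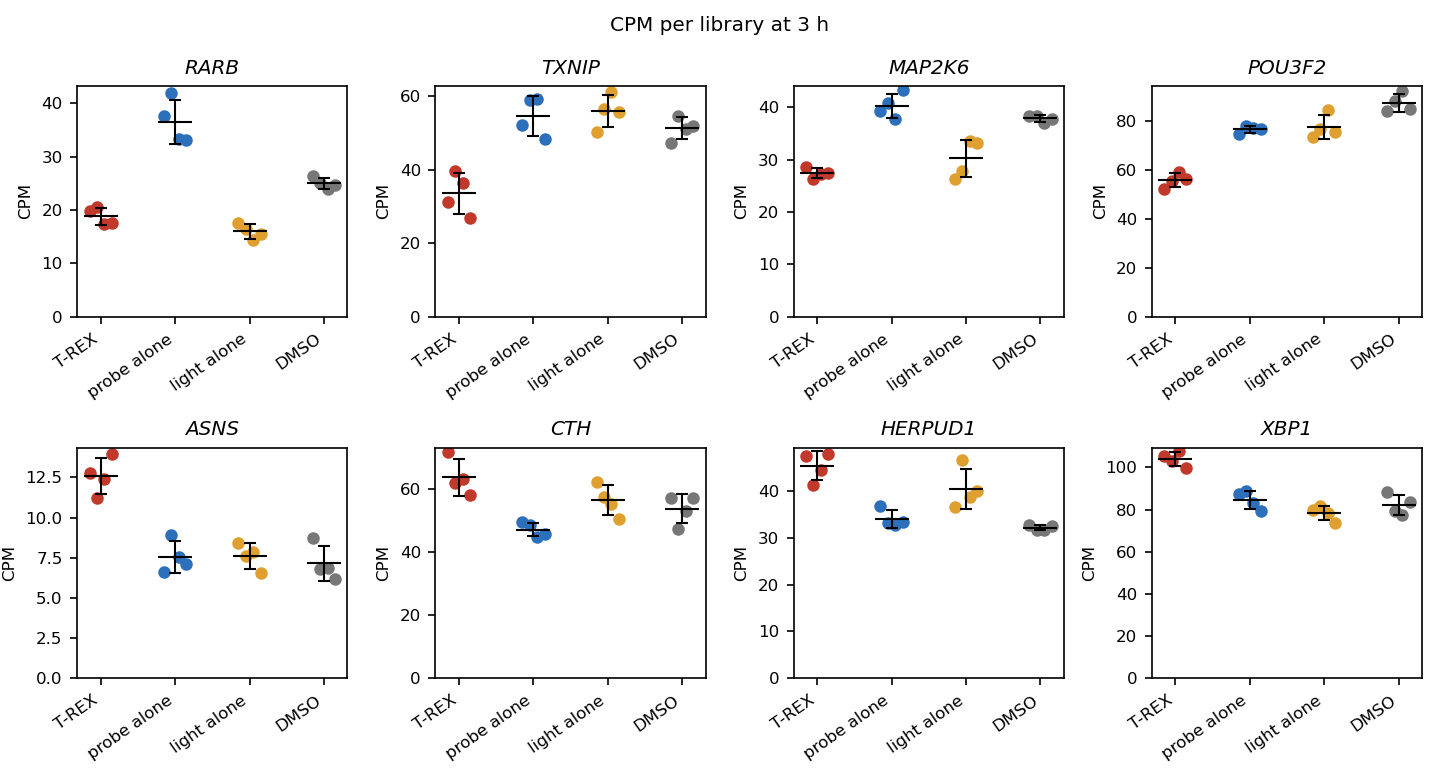
CPM (vertical axis, TMM-normalised) of 8 genes in the 4 arms at 3 h (horizontal axis). Each point is 1 library, and the bar is the mean with its SD (n = 4). For RARB, light alone lies with T-REX and below probe alone, whereas for TXNIP, POU3F2 and ASNS light alone lies with probe alone.

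RARB, the gene for retinoic acid receptor beta, had the lowest log2 fold change of all called genes. Its level was 19.8, 20.5, 17.3 and 17.5 CPM in the T-REX replicates and 37.5, 41.9, 33.4 and 33.1 CPM in probe alone, so the highest T-REX library lay well under the lowest probe alone library. It was 48.5% lower in T-REX than in probe alone (log2 fold change -0.96, SE 0.0882, edgeR adjusted p = 5.64e-06). Light alone stood at 14.3 to 17.6 CPM and DMSO at 23.9 to 26.4 CPM, so probe alone was the highest of the 4 arms and light alone the lowest. T-REX lay below DMSO as well, by less than it lay below probe alone. Of 10 measured genes of retinoid receptors and retinoid metabolism RARB was the 1 called. DHRS3, a retinaldehyde reductase that is a known retinoic acid target, was at 5.26 to 7.01 CPM against 7.49 to 8.50 CPM without overlap, but its adjusted p was 0.155 (log2 fold change -0.39), and the list's median was -0.14.

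TXNIP and ARRDC4 are paired targets of the glucose-sensing factor MondoA: both encode alpha-arrestins, and TXNIP binds thioredoxin and restrains glucose uptake. MondoA and its partner MLX bind carbohydrate response elements built from CACGNG sites, so the RefSeq promoter windows of both genes (250 bases before to 50 after the start, GRCh38.p14, each 5′ to 3′ on the gene's strand) are shown here with each CACGNG on either strand in capitals. TXNIP lies on the minus strand at chr1:145996530-145996829 and ARRDC4 on the plus strand at chr15:97960453-97960752.
TXNIP: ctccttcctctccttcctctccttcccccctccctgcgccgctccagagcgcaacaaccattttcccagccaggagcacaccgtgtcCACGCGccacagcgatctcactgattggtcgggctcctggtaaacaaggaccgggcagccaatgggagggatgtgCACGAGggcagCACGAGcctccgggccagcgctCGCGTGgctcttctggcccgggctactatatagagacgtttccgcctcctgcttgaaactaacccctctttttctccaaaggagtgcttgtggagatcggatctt
ARRDC4: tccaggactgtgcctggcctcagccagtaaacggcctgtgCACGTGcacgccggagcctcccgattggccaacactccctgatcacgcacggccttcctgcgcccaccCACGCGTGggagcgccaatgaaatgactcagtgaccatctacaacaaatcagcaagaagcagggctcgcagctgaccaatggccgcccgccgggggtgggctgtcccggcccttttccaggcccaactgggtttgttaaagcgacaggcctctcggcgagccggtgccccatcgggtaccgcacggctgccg
The TXNIP window held 4 matches, starting at -163, -88, -77 and -55 from the start site, and the ARRDC4 window held 3, at -210, -142 and -140, the last 2 overlapping on opposite strands. Such matches are common: 49.1% of the 10456 tested genes with a window and 30.5% of all 35116 windows held at least 1, beside 55.8% of the 104 lower genes with a window and 56% of the 25 higher ones.

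TXNIP was at 31.3, 39.8, 36.4 and 26.8 CPM in T-REX and at 52.1, 58.9, 59.2 and 48.3 CPM in probe alone. The groups did not overlap, and TXNIP fell by 38.5% (log2 fold change -0.70, SE 0.0994, edgeR adjusted p = 0.0029). ARRDC4 was at 31.1, 36.2, 33.5 and 29.6 CPM in T-REX and 45.5, 49.0, 46 and 39.5 CPM in probe alone, and fell by 27.5% (log2 fold change -0.46, SE 0.0857, adjusted p = 0.0133), a call lost without T-REX replicate 4, probe alone replicate 1 or probe alone replicate 2. These were the 2 called among 10 measured genes of the list. Its other members ran from -0.25 for PFKFB3, a glycolytic regulator, to 0.29 for ARRDC3, another alpha-arrestin, and the genes for MondoA and MLX themselves stood at -0.02 (MLXIP) and 0.02 (MLX).

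Genes of the hypoxia response, which hypoxia-inducible factors switch on when oxygen is short, lay mostly below probe alone. Of 35 measured, 6 were called lower and none higher, 28 had a log2 fold change below 0, and the median was -0.18 beside 0.02 over all genes. The list's median was -0.02 for T-REX over light alone and -0.15 for light alone over probe alone. The called members were CXCR4, a chemokine receptor, PDK1, a kinase that inhibits pyruvate dehydrogenase, and PLOD2, a collagen lysyl hydroxylase. Also called were BNIP3L, a receptor for removal of mitochondria, KDM3A, a histone demethylase, and MXI1, an antagonist of MYC. CXCR4 had the widest difference, with 5.68, 7.72, 7.78 and 7.04 CPM in T-REX and 12.4, 10.01, 11.4 and 10.1 CPM in probe alone, without overlap (log2 fold change -0.64, SE 0.146, edgeR adjusted p = 0.0433). PDK1 fell by 20.7%, from 112 to 125 CPM in probe alone to 86.2 to 101 CPM in T-REX (log2 fold change -0.33, SE 0.0603, adjusted p = 0.0113). The other 4 fell by 15.1% (MXI1) to 18.2% (PLOD2). Without probe alone replicate 1 none of the 6 was called (edgeR, median of the list -0.12, 29 of 35 below 0), without T-REX replicate 4 the count was 1, and without T-REX replicate 3 it was 11.

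Some members with changes larger than those of most called members did not pass. STC1, a secreted glycoprotein, was at 0.639 to 0.981 CPM in T-REX and 1.19 to 2.35 CPM in probe alone (log2 fold change -1.06, adjusted p = 0.0776), and EGLN3, an oxygen-sensing prolyl hydroxylase, at 4.91 to 8.62 CPM against 9.32 to 12.3 CPM (-0.56, adjusted p = 0.0748). ALDOA, an aldolase, was at the top of the list with 0.61, overlapped between the arms and was negative with sample weights.

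MAP2K6 encodes a kinase that activates stress-responsive MAP kinases. It was at 28.6, 26.3, 27.3 and 27.5 CPM in T-REX and 39.4, 40.8, 37.8 and 43.2 CPM in probe alone, a fall of 31.9% without overlap (log2 fold change -0.55, SE 0.0738, edgeR adjusted p = 0.00097). It was the 1 called gene of 25 measured in the MAP kinase cascades, whose median was 0.00. The paralogue MAP2K3, which shares its substrates, stood at -0.15 and the substrate kinase MAPK14 at -0.06, neither called. SPRY1, an inhibitor of receptor tyrosine kinase signalling outside that list, fell from 12.4 to 14.4 CPM in probe alone to 8.27 to 11 CPM (log2 fold change -0.44, adjusted p = 0.0433).

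Of 23 measured transcription factors that pattern the embryo, 2 were called, both lower. POU3F2, a neural POU-domain factor, was at 52.3, 55.7, 59.2 and 56.4 CPM in T-REX and at 74.7, 78.2, 77.1 and 76.7 CPM in probe alone. The gap between the arms was wider than the range within either, and POU3F2 fell by 27.1% (log2 fold change -0.46, SE 0.0544, edgeR adjusted p = 0.000254). DACH1, a nuclear cofactor of the eye and limb network, was at 73.2, 74.8, 73.9 and 72.7 CPM against 89.2, 94.7, 95.8 and 88.2 CPM and fell by 19.9% (log2 fold change -0.32, SE 0.0455, adjusted p = 0.00205). Of the 23, 14 lay below 0, with a median of -0.09, and SIX2, a homeobox factor of the nephron progenitors, had the highest value of the list, 0.50, without passing. Outside the list HOXA13, a homeobox factor of limb and hindgut, was at 36.4, 36.1, 45.3 and 41 CPM against 50.7, 57.0, 53.7 and 52.4 CPM (log2 fold change -0.43, adjusted p = 0.00675). NFYA, the subunit of the CCAAT-binding factor NF-Y that contacts DNA, was at 57.5, 56.2, 57.4 and 56.3 CPM against 71.1, 74.5, 71.4 and 69.0 CPM (-0.33, adjusted p = 0.0029). The sequence CCAAT was in the windows of 54 of 104 lower genes (51.9%), 15 of 25 higher genes and 43.9% of all tested genes.

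Receptors and signalling genes called lower included TGFBR3, the betaglycan co-receptor of transforming growth factor beta, at 35 to 37 CPM against 43.7 to 45.9 CPM (log2 fold change -0.31, edgeR adjusted p = 0.00675). It was the 1 called of 26 measured genes of the BMP and TGF-beta pathways, where 21 lay below 0 and the median was -0.09. The type I and type II receptors TGFBR1, BMPR1A and BMPR2 stood at -0.21, -0.20 and -0.18 with adjusted p of 0.0965, 0.0719 and 0.0636. NR3C2, the mineralocorticoid receptor, fell by 20.5% and LGR4, the R-spondin receptor of the WNT pathway, by 17.7%. KCTD12, an auxiliary subunit of the GABA-B receptor, was at 101, 113, 106 and 118 CPM against 147, 154, 134 and 138 CPM (-0.39, adjusted p = 0.00817). TFRC, the transferrin receptor, fell by 16.4%.

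In metabolism, IDH1, the cytosolic isocitrate dehydrogenase that makes NADPH, was at 37.7, 37.4, 37.4 and 36.2 CPM in T-REX and at 52.0, 46, 51.0 and 45.4 CPM in probe alone, a fall of 23.6% (log2 fold change -0.39, SE 0.0643, edgeR adjusted p = 0.00675). ELOVL6, which lengthens saturated fatty acids, fell by 24.4% to 33.5 to 40.2 CPM from 41.5 to 53 CPM. It was the 1 called of 30 measured genes of sterol and fatty acid synthesis, of which 21 lay below 0 (median -0.10). The list's median was 0.12 for T-REX over light alone and -0.23 for light alone over probe alone. Over probe alone the sterol enzymes MSMO1, IDI1 and SQLE followed at -0.28, -0.28 and -0.26 with edgeR adjusted p of 0.0591, 0.0793 and 0.0625. SESN3, a sestrin that restrains mTORC1, was at 157, 155, 154 and 160 CPM against 194, 197, 191 and 175 CPM (-0.27, adjusted p = 0.0094), the 1 called of 22 measured genes of mTORC1 and S6 kinase.

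Heat shock genes, which HSF1 raises when proteins misfold, were not higher after T-REX. Of 17 measured, 3 were called lower and none higher, 14 lay below 0, and the median was -0.15, beside 0.02 over all genes. The list's median was 0.04 for T-REX over light alone and -0.13 for light alone over probe alone. The 3 were HSPA8, the constitutive cytosolic HSP70, which fell by 19.3%, HSPH1, its nucleotide exchange factor, which fell by 16.7%, and DNAJB1, an HSP40 co-chaperone, which fell by 19.6%. DNAJB1 was at 133, 156, 171 and 134 CPM in T-REX and 187, 176, 198 and 179 CPM in probe alone, so the groups came close without overlap. The inducible HSPA1B was spread from 63.7 to 170 CPM within T-REX and from 79.9 to 128 CPM within probe alone (log2 fold change -0.03). Without probe alone replicate 1 or T-REX replicate 4 none was called by edgeR (medians -0.12 and -0.11), and without T-REX replicate 3 the count was 8. HSPA1B shares near-identical sequence with HSPA1A, so its counts are uncertain.

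Among 21 measured NRF2 targets none was called in either direction by edgeR (6 had an unadjusted p under 0.05, and DESeq2 called 2 higher), and the median was -0.01. HMOX1, haem oxygenase, was at 22.4, 27, 26.7 and 26.3 CPM in T-REX and at 21.7, 20.8, 20.8 and 22.3 CPM in probe alone, which did not overlap, with a log2 fold change of 0.26 (adjusted p = 0.103). The quinone reductase NQO1 was at 2.86 to 3.64 CPM against 3.00 to 4.01 CPM (-0.12), the glutathione synthesis subunit GCLM at 47.4 to 59.9 CPM against 49.6 to 59.3 CPM (-0.01) and the thioredoxin reductase TXNRD1 at 99.0 to 113 CPM against 109 to 118 CPM (-0.09). The highest member was SLC7A11, the cystine transporter, which is also an ATF4 target, at 163, 145, 116 and 146 CPM against 113, 116, 94.9 and 100.4 CPM (0.42, adjusted p = 0.0779).

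Genes called higher included ATF4 targets of the integrated stress response, in which phosphorylation of the initiation factor eIF2 slows translation and raises ATF4. Of 39 measured, 5 were called higher (ASNS, CTH, ATF3, PPP1R15A and SLC1A4) and none lower. In all 35 of the 39 lay above 0, with a median of 0.16 beside 0.02 over all genes. Without probe alone replicate 1 the count was 2 (median 0.19) and without T-REX replicate 3 it was 7 (median 0.15). ATF4 acts on C/EBP-ATF response elements of the form TGATGNAA, and the ASNS promoter (RefSeq window, GRCh38.p14, minus strand, chr7:97872359-97872658) is shown for that element, in capitals, at -68 from the start.
ASNS: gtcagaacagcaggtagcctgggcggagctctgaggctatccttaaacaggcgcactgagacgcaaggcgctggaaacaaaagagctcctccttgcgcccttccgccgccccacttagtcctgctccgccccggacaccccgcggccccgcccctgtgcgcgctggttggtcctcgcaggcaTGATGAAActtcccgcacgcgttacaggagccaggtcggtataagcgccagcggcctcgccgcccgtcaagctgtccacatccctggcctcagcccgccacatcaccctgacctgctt
The same element, on either strand, lay in the windows of 6 of the 25 genes called higher that had a window (ASNS, HERPUD1, CARS1, SLC1A4, AOC2 and ATF3), of 3 of 104 called lower (2.88%), and of 2.68% of all tested genes with a window. Stretches of 3 more are printed, in capitals where they match: HERPUD1 (plus strand, chr16:56931946-56931993), CARS1 (minus strand, chr11:3057398-3057445) and SLC1A4 (plus strand, chr2:64989372-64989419).
HERPUD1: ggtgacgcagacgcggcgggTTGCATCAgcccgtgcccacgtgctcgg
CARS1: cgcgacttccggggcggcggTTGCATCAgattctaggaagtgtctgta
SLC1A4: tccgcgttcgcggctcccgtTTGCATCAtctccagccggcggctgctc
In these 3 the capitals hold the element read from the opposite strand, at -176, -2 and -7 from the start. A match is a description of the letters and not of binding.

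ASNS, asparagine synthetase, was at 12.8, 11.2, 12.4 and 14 CPM in T-REX and at 6.59, 8.93, 7.56 and 7.12 CPM in probe alone. The lowest T-REX library was above the highest probe alone library, and ASNS rose 1.67-fold (log2 fold change 0.74, SE 0.126, edgeR adjusted p = 0.00817); the call was lost without probe alone replicate 1. CTH, cystathionine gamma-lyase, which makes cysteine, was at 71.7, 61.8, 63.1 and 57.9 CPM against 49.3, 48.4, 44.8 and 45.7 CPM and rose 1.35-fold (log2 fold change 0.43, SE 0.0751, adjusted p = 0.00817). ATF3, a bZIP factor also counted among immediate early genes, was at 126, 115, 140 and 113 CPM against 94.9, 91.9, 94.7 and 90.0 CPM (log2 fold change 0.41, adjusted p = 0.0202). PPP1R15A, the phosphatase subunit that reverses eIF2 phosphorylation, was at 37, 35.7, 41.9 and 36.4 CPM against 30.2, 26.8, 28.9 and 29.8 CPM (0.38, adjusted p = 0.0147). SLC1A4, a neutral amino acid transporter, was nearest the threshold (0.27, adjusted p = 0.0497), its arms overlapped, and it stayed called in 8 of 26 alternatives.

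Other ATF4 targets did not pass. CHAC1, which degrades glutathione, was at 4.25, 4.52, 7.95 and 7.68 CPM in T-REX and at 3.37, 2.32, 3.39 and 2.56 CPM in probe alone, without overlap, but with an SE of 0.278 on a log2 fold change of 1.06 (edgeR adjusted p = 0.0698). DDIT3, the CHOP factor, was at 5.58 to 6.66 CPM against 4.27 to 5.99 CPM (0.21), TRIB3 at 18.7 to 25.9 CPM against 17.8 to 21.1 CPM (0.19), and ATF4 itself at 369 to 429 CPM against 332 to 384 CPM (0.12), all overlapping. Among 20 cytosolic aminoacyl-tRNA synthetases CARS1, the cysteinyl enzyme, was called (64.7, 64.0, 69.7 and 67.1 CPM against 56.5, 50.8, 49.1 and 57.5 CPM, log2 fold change 0.31, adjusted p = 0.0352), and the median was 0.01. Of 17 genes of asparagine, serine and one-carbon synthesis ASNS and CTH were called higher and ALDH18A1, which starts proline synthesis, lower (-0.23). Of 13 amino acid transporters SLC1A4 was called and 12 lay above 0.

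In the unfolded protein response of the endoplasmic reticulum, 2 of 28 measured genes were called, both higher. XBP1, its transcription factor, was at 106, 103, 108 and 99.8 CPM in T-REX and at 87.1, 88.9, 83.1 and 79.3 CPM in probe alone, a 1.23-fold rise (log2 fold change 0.30, SE 0.0531, edgeR adjusted p = 0.0106). HERPUD1, a membrane protein of ER-associated degradation, was at 47.5, 41.3, 44.5 and 48 CPM against 36.7, 33.2, 32.7 and 33.4 CPM, a 1.33-fold rise (log2 fold change 0.41, SE 0.0715, adjusted p = 0.00817). The chaperones did not follow in the calls: HSPA5, the ER HSP70, stood at 0.11, DNAJB9 at 0.20, and the isomerase PDIA6 was lowest at -0.21 (adjusted p = 0.065). The list's median was 0.05. Gene counts do not show the splicing of XBP1 mRNA.

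The 12 largest rises among called genes with a symbol were in genes with a mean under 12 CPM in probe alone, and of these 12 ASNS was the 1 in a list. SEPTIN7-DT, a divergent noncoding transcript, was at 3.87, 2.63, 2.49 and 2.49 CPM in T-REX and 1.86, 1.41, 1.60 and 1.16 CPM in probe alone (log2 fold change 0.92, SE 0.225, edgeR adjusted p = 0.0489). HSPD1P4, a processed pseudogene of the chaperonin gene HSPD1, was at 2.57 to 3.65 CPM against 1.59 to 2.101 CPM (0.90), while HSPD1 itself was at 461 to 523 CPM against 538 to 577 CPM (-0.20, adjusted p = 0.0584); reads shared between them make the pseudogene's value uncertain. LCT, lactase, TINCR, KLHL7-DT and TAF7L lay between 0.70 and 0.77. COLQ, the collagen tail of acetylcholinesterase, was at 15.2, 15.9, 13 and 15.6 CPM against 9.32, 10.3, 9.97 and 10.6 CPM (0.57, SE 0.1, adjusted p = 0.00897). PCGF3-AS1, antisense to PCGF3, was at 15.7, 15.3, 15.6 and 12.8 CPM against 10.8, 9.65, 10.8 and 10.6 CPM (0.50). Whether counting used strand is not given in the sources used here, so reads of an antisense or divergent transcript and of its neighbour may be mixed.

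The 2 directions held different kinds of gene, given here as a description. All 119 lower genes were protein coding, against 25 of the 35 higher genes (71.4%) and 80.9% of all genes tested. The lower genes had a median level of 114 CPM in probe alone and the higher genes 10.5 CPM, beside 20.2 CPM over all genes. Median GC content was 42.1% in lower, 47.5% in higher and 47.2% in all genes, and median exonic length 6012, 4490 and 4750 bases. Genes outside protein coding lay above 0 as a body: the median log2 fold change of 2811 such genes was 0.17, 78.8% of them above 0, with 0.19 for antisense genes, 0.16 for lincRNAs and 0.22 for processed pseudogenes, beside 0.00 for protein-coding genes. Protein-coding genes under 5 CPM in probe alone had a median of 0.18 and other types under 5 CPM 0.20. The libraries behind these 2 medians differed. Against the mean log2 CPM of the 8 libraries, T-REX replicates 1 to 4 stood at -0.05, -0.02, 0.17 and 0.19 in the low protein-coding genes. In the other low types they stood at 0.24, 0.08, -0.08 and 0.13. The cut used the level in probe alone, the arm T-REX was set against, which by itself favours values above 0. The part of a gene's level in the count of calls was not tested.

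Library by library the shift of genes outside protein coding was not uniform. These genes include pseudogenes and 129 genes that GENCODE 29 does not hold. Taken against the mean log2 CPM of the 8 libraries, they had medians of 0.22, 0.08 and 0.12 in T-REX replicates 1, 2 and 4. Their median was -0.11 in T-REX replicate 3. In probe alone replicates 1 to 4 the medians were -0.12, -0.09, -0.06 and 0.00. Without T-REX replicate 3 the median log2 fold change of these genes was 0.21, and with offsets for GC content and length it was 0.12. Of 5 equal bins of genes by GC content, the highest had a median of 0.15 and the lowest -0.03, with libraries on both sides of 0. For the bins a library's value was the log2 of its CPM over the mean CPM of the 8 libraries. In the highest bin T-REX replicates 1 to 4 stood at -0.32, -0.10, 0.31 and 0.23, and probe alone at -0.08, -0.21, -0.03 and -0.03. In that bin the median log2 fold change was -0.006 for T-REX over light alone and 0.14 for light alone over probe alone. Calls were few there (3 higher and 1 lower, against 1 higher and 42 lower in the lowest bin). GC-rich genes such as FASN, fatty acid synthase, showed the split in full, at 66.2, 94.8, 283 and 288 CPM in T-REX and 98.5 to 124 CPM in probe alone, and so did JUNB, an AP-1 subunit, at 0.752, 0.961, 5.64 and 6.37 CPM against 0.524 to 1.63 CPM. Neither was called (adjusted p = 0.485 and 0.305), and FASN took both levels in light alone too, at 106, 298, 285 and 105 CPM.

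**Figure D2:**
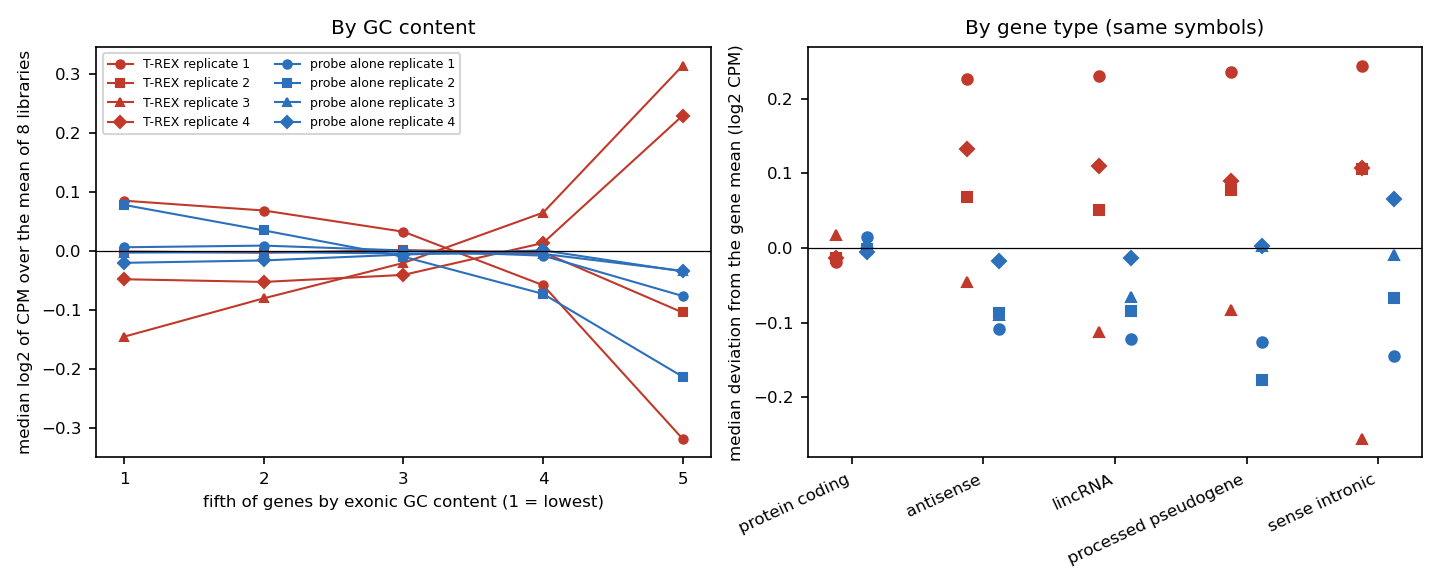
Levels in the T-REX and probe alone libraries at 3 h (vertical axis), 1 point or line for each library. For 5 equal bins of genes by GC content the value is the median log2 of CPM over the mean CPM of the 8 libraries. For gene types it is the median of log2 CPM less the gene's mean log2 CPM over the 8 libraries. T-REX replicates lie at -0.32, -0.10, 0.31 and 0.23 in the highest-GC bin. T-REX replicate 3 lies below 0 for the types outside protein coding, where the other T-REX replicates lie above it.

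Lists without any call gave medians near that of all genes or wide scatter. Cytosolic ribosomal protein genes (79 measured) had a median of -0.06, U2 snRNP and spliceosome genes (29) -0.05, snoRNA host genes (15) 0.06, mitochondrially encoded mRNAs (13) -0.08, aryl hydrocarbon receptor genes (7) -0.09, p53 targets (20) 0.12 and replication-dependent histones (34) 0.25. For these 7 lists edgeR called none, with 12, 4, 3, 3, 0, 1 and 1 members at an unadjusted p under 0.05, while DESeq2 called 4 ribosomal protein genes, 1 snoRNA host and 2 mitochondrial mRNAs, all lower. Immediate early genes (19) had a median of 0.25 with ATF3 the 1 called. Their median was -0.0006 for T-REX over light alone and 0.25 for light alone over probe alone. Most p53 targets, 16 of 20, lay above 0 without passing, with CDKN1A at 0.26 and BBC3 at 0.59. The median of the p53 targets was -0.08 for T-REX over light alone and 0.17 for light alone over probe alone. The highest value among ribosomal protein genes was 1.11 for RPLP2, not called, on levels of 4.96, 8.04, 32.7 and 21.4 CPM in T-REX and 6.22 to 9.14 CPM in probe alone, the same split of T-REX replicates as FASN.

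Set beside light alone at 3 h, the called genes took different forms. As the arms are named, light alone and probe alone differ in both light and probe. Since the 3 comparisons share libraries, their values are given only side by side. By edgeR 29 genes passed for T-REX over light alone (0.197%) and 34 for light alone over probe alone (0.232%). For T-REX over DMSO at 3 h edgeR called 880 of 14685 genes. Of the genes called over probe alone, these held 106 of the 119 lower and 19 of the 35 higher. The comparison with DMSO uses the same T-REX libraries, so these counts are not independent. For TXNIP the log2 fold change was -0.70 over probe alone, -0.74 over light alone (adjusted p = 0.00208) and 0.03 between light alone and probe alone. POU3F2 gave -0.46, -0.47 (adjusted p = 0.00016) and 0.02, and ASNS gave 0.74, 0.73 (adjusted p = 0.0105) and 0.01. ARRDC4, SESN3 and XBP1 had the same form, with -0.55, -0.28 and 0.41 over light alone (adjusted p = 0.00459, 0.00987 and 0.000661). In these 6 genes light alone stood near probe alone.

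A second set stood with light alone. RARB was 0.23 over light alone (adjusted p = 0.22) and -1.19 between light alone and probe alone (adjusted p = 1.1e-07). MAP2K6 gave -0.14 and -0.41 (adjusted p = 0.0184 for the latter by edgeR), DACH1 -0.04 and -0.28 (adjusted p = 0.01), PDK1 0.07 and -0.41 (adjusted p = 0.0077), ELOVL6 -0.02 and -0.38, IDH1 -0.08 and -0.30, and HSPA8 -0.02 and -0.29. Of the rises, ATF3 gave 0.02 and 0.39 (adjusted p = 0.0436) and PPP1R15A -0.01 and 0.39 (adjusted p = 0.0267). In none of these genes was T-REX over light alone called by edgeR. CTH, HERPUD1, HOXA13 and NFYA lay between, with 0.18, 0.16, -0.31 and -0.21 over light alone and 0.26, 0.25, -0.12 and -0.12 between light alone and probe alone, none of these 8 values called.

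Libraries not used in the 3 h comparison gave values for the same genes. Of the 154 genes, 142 had the same sign in T-REX against probe alone at 6 h (92.2%, beside 58.4% of all genes) and 123 at 12 h (79.9%, beside 53%). Called again were 6 genes at 6 h, where 16 of all genes were called (0.109%), and 16 genes at 12 h, where 103 were (0.701%). Most effects were smaller later, 142 of 154 at 6 h and 139 of 154 at 12 h, and the median of the lower genes went from -0.27 to -0.10 and -0.06. The 154 were chosen on their 3 h values, so a comparison of sizes with 3 h is not independent of the choice. In light alone against DMSO at 3 h, which share no library with T-REX or probe alone, 140 of the 154 had the same sign (90.9%, beside 67.5% of all genes), and RARB was called there too (log2 fold change -0.64, edgeR adjusted p = 0.0051).

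RARB, MAP2K6, TXNIP, ARRDC4, PDK1 and KDM3A were called at all 3 times. RARB gave -0.96 at 3 h, -1.16 at 6 h and -1.28 at 12 h, and TXNIP gave -0.70, -0.95 and -1.08. MAP2K6 (-0.55, -0.47 and -0.49) and ARRDC4 (-0.46, -0.47 and -0.51) lay close to their 3 h values. Hypoxia genes as a list had medians of -0.18, -0.30 and -0.42 at 3, 6 and 12 h, with PLOD2 at -0.29, -0.37 and -0.64 and LDHA, lactate dehydrogenase A, at -0.30, -0.25 and -0.63, the last called at 12 h (edgeR adjusted p = 0.000545) and not at 3 h. ATF4 targets had medians of 0.16, 0.17 and 0.21, although ASNS itself was 0.74, 0.34 and 0.36 and was not called later. HERPUD1 (0.41, 0.06 and 0.00), ATF3 (0.41, 0.06 and 0.04), NFYA (-0.33, -0.09 and -0.02) and HOXA13 were called at 3 h and not later. Genes outside protein coding had medians of 0.17, 0.03 and 0.03.

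In 1 fit of all 48 libraries the difference between T-REX and probe alone at 12 h was set against that at 3 h, and 10 genes were called by edgeR (0.0681%). NFYA was the 1 of the 10 that was also called at 3 h, and its effect moved by 0.33 (adjusted p = 0.0334) towards 0. For the difference between 6 h and 3 h edgeR called 0 genes, DESeq2 0 and limma's voom 17, with 1204 at an unadjusted p under 0.05. A loss of the call between 3 h and a later time in the other genes is therefore not shown to be a change with time.

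**Figure D3:**
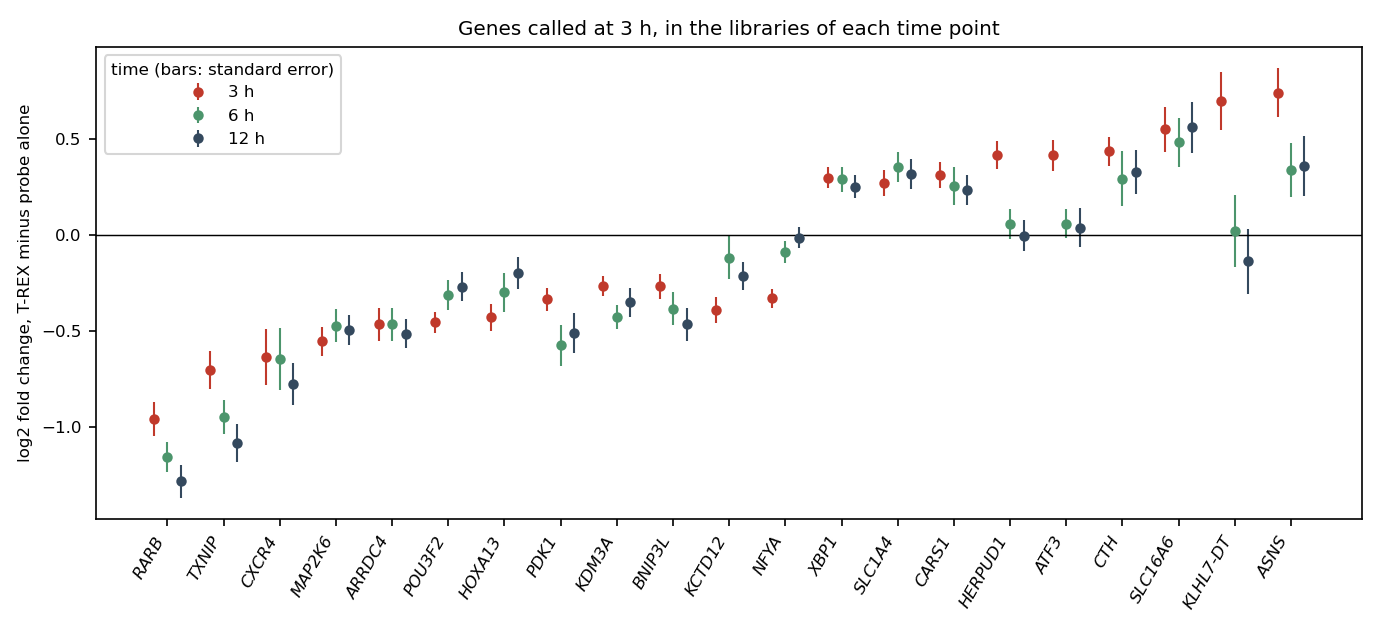
Log2 fold change of T-REX over probe alone with its SE (vertical axis) for 21 genes (horizontal axis) at 3, 6 and 12 h. RARB and TXNIP lie at -0.96 and -0.70 at 3 h and at -1.28 and -1.08 at 12 h, whereas HERPUD1 and ATF3 are near 0 at 6 and 12 h.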

How the data were processed

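Total RNA of HEK293T cells was depleted of rRNA and sequenced as stranded paired-end libraries. The authors deposited gene counts for each time point and a table of RUV factors (a score per library for unwanted variation). bcl2fastq is named in the submitters' processing notes; the counter, its strand setting and the genome build of the counts are not given in the sources used here. Deposited counts of 14685 genes were normalised by TMM and fitted in edgeR 4.0.16 (R 4.3.3) with the quasi-likelihood F-test over the 16 libraries of a time point (filterByExpr, robust dispersion), and over 48 libraries for times, with Benjamini-Hochberg adjustment over all genes and calls at 0.05. An SE is the log2 fold change over the root of F. Alternatives used DESeq2 1.42.0, limma 3.58.1 voom weights, RLE factors, no filter, a replicate block, the RUV factors, only the arms compared, each library left out, GC and length offsets, a mean of at least 100 counts, and 2 doubted libraries left out; the last 3 were added after seeing the data. The scripts were tested on simulated counts. Named genes were NCBP1, the 12 higher and 12 lower called genes with a symbol and the largest changes, called list members, and the ends of described lists; others named (NCBP2, HOXA13, IDH1 and the like) were chosen after their values were seen, and 2 members of the lists are not reported here. Members and lists were chosen with earlier results of these data known. GENCODE 29 gave types, GC content and lengths for 14556 genes, and RefSeq windows (GRCh38.p14) matched 129 of the 154 called genes. No 2 replicates of any of the 12 arms and times agreed within sampling noise: their chi-square per degree of freedom was 3.15 or more. No column of the deposited tables was unused.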

Additional observations from a re-analysis of the deposited data

Results flagged for a closer look

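Of 178 groups of 4 libraries tested, 8 held a library farther from the others than Dixon's 95% criterion allows; chance flags about 1 in 20 such groups. In T-REX, SEPTIN7-DT was at 3.87 CPM in replicate 1 beside 2.49 to 2.63 CPM in the others, ELOVL6 at 40.2 CPM in replicate 2 beside 33.5 to 34.5 CPM, GPM6B, a neuronal membrane glycoprotein, at 31.4 CPM in replicate 3 beside 38.1 to 38.2 CPM, PDIA6 at 139 CPM in replicate 4 beside 158 to 162 CPM, and CTIF at 11.1 CPM in replicate 1 beside 13.6 to 13.97 CPM. In probe alone all 3 were in replicate 1: HERPUD1 at 36.7 CPM beside 32.7 to 33.4 CPM, the cytochrome CYP1B1 at 9.93 CPM beside 7.49 to 7.80 CPM, and the snoRNA host SNHG7 at 13.7 CPM beside 15.2 to 15.4 CPM. Without the lone library SEPTIN7-DT lost its call (log2 fold change 0.75), while HERPUD1 kept its call without probe alone replicate 1 and ELOVL6 without T-REX replicate 2.

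The difference between T-REX and probe alone was itself different at 12 h and at 3 h in 10 genes, by edgeR's interaction test over 48 libraries. TMEM45A, a transmembrane protein, moved by -0.70 (from -0.14 at 3 h to -0.85 at 12 h, adjusted p = 0.0227), and the other 9 moved upwards. LHX4, a LIM homeobox factor, moved by 0.94 (-0.44 to 0.48, adjusted p = 0.0334), SRGAP1 by 0.50 (-0.27 to 0.21, adjusted p = 0.0411), ACER3, an alkaline ceramidase, by 0.43 (-0.19 to 0.22, adjusted p = 0.0334) and OXA1L, a mitochondrial insertase, by 0.43 (-0.21 to 0.20, adjusted p = 0.0334). RASAL2 moved by 0.40 (-0.21 to 0.18, adjusted p = 0.0227), ITPRID2 by 0.37 (-0.13 to 0.22, adjusted p = 0.044), the zinc transporter SLC39A14 by 0.35 (-0.13 to 0.20, adjusted p = 0.0451), and NFYA and the condensin subunit NCAPH by 0.33 each (-0.33 to -0.02 and -0.15 to 0.16, both at an adjusted p of 0.0334). No gene was called without T-REX replicate 3 or 4 or probe alone replicate 2 of 3 h, or without T-REX replicate 2 or 3 or probe alone replicate 2 of 12 h, and 0 were when T-REX and probe alone libraries alone were fitted.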

How the results depend on the processing

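Over 26 alternatives, the number of genes called at 3 h ranged from 3 to 2551 around 154. It was 623 with DESeq2, 2551 with the RUV factors, 1051 with voom and sample weights, 3 with only the 2 arms, 464 with GC and length offsets, 85 among genes with a mean of at least 100 counts, and 76 with both T-REX replicate 3 and probe alone replicate 1 left out. Leaving out each replicate gave 18 (without probe alone replicate 1) to 535 (without T-REX replicate 3). RLE factors (175) changed little. The filter removed 0 genes, so the fit without it (154) repeated the main fit and cannot show how the calls depend on filtering. For light alone against probe alone (34) the counts were 239 with DESeq2, 2176 with RUV factors, 1319 with voom, 156 with 2 arms, 185 with offsets, 19 with both libraries out, and 1 to 197 leaving out each replicate. At 6 h (16) they were 57, 257, 81 and 88 with DESeq2, RUV factors, voom and 2 arms, 48 with offsets, and 6 to 14 leaving out each. At 12 h (103) they were 257, 901, 611 and 389, then 248, and 29 to 209. For the interaction of 6 h with 3 h (0) they were 344 with RUV factors and 17 with voom. For that of 12 h with 3 h (10) they were 66 with DESeq2, 1556 with RUV factors, 97 with voom, 0 with T-REX and probe alone libraries only, and 0 to 21 leaving out each replicate (5 without T-REX replicate 2 of 3 h or T-REX replicate 1 of 12 h).

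Replicate numbers did not pair the libraries by the check used: deviations of same-numbered T-REX and probe alone libraries correlated at -0.175, 0.391, 0.37 and 0.276 for replicates 1 to 4, against -0.171 to 0.00329 with other numbers, so replicates 2 to 4 correlated best with their own number and replicate 1 did not. With the replicate block 203 genes were called at 3 h, 13 at 6 h, 90 at 12 h, 33 between light alone and probe alone, and 20 for the interaction of 12 h with 3 h.

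Of 2171 values for the 84 named genes under the alternatives, 1824 kept direction and side of the threshold, 280 lost the call, 54 gained one and 13 changed sign, the last all in genes that were not called. With voom the log2 fold change was -0.041 for ALDOA, -0.13 for HSF1, -0.070 for BBC3, -0.030 for FASN, -0.14 for MLST8, -0.0050 for MT-ATP8 and -0.022 for NEFM. With offsets it was -0.14 for HSF1, and with both libraries out -0.019. Leaving out each replicate gave -0.075 to 0.28 for HSF1 and -0.079 to 0.70 for MT-ATP8, the lowest both times without T-REX replicate 3, and -0.13 to 0.070 for MYC, with 0.0024 without probe alone replicate 2. The causes were not tested.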

Other observations

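Called genes outside the lists, chosen after their values were seen, add a few kinds of gene. Among the lower ones, NEK7, a kinase of the inflammasome, was at 91.6 to 109 CPM in T-REX and 121 to 132 CPM in probe alone (log2 fold change -0.32, edgeR adjusted p = 0.0115), and CHML, a Rab escort protein, at 195 to 220 CPM against 230 to 255 CPM (-0.23, adjusted p = 0.0347). EPHA4, an ephrin receptor, stood at 55.5 to 62.4 CPM against 68.6 to 74.5 CPM (-0.25), IGFBP5, which binds insulin-like growth factors, at 22.1 to 27.6 CPM against 30.1 to 33.2 CPM (-0.35), and FREM2, an extracellular matrix protein, at 55.3 to 61.0 CPM against 67.5 to 71.8 CPM (-0.23). SLITRK5, a synaptic adhesion protein, fell by 19.2%. Among the higher ones, SLC16A6, a monocarboxylate transporter, was at 9.34 to 11.1 CPM against 6.08 to 7.13 CPM (0.55, adjusted p = 0.0345) and was called again at 12 h (0.56, adjusted p = 0.0411). ISG20, an RNA exonuclease, was at 7.18 to 11.1 CPM against 5.92 to 6.68 CPM (0.56, adjusted p = 0.0433).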
